A study of Homo sapiens with 8 samples.

Results

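The 9 genes described here encode complement components and regulators: C1R, C1S, C3, CFB, CFI, SERPING1, CD46, CD55 and CD59. They are the rows of these gene names in the tables of RNA-seq counts and FPKM, with no measured value in the rule, and they are 9 of the 25369 genes in those tables. CFI had too few counts for a test, which left 8 complement genes among the 14570 genes tested. The cells were LX-2, an established human hepatic stellate cell line of wild type genotype, and all came from this 1 line. They had been expanded on tissue culture plastic and reseeded on hydrogels of a stiffness like that of healthy liver (2 kPa, soft) or of cirrhotic liver (40 kPa, stiff), and RNA was sequenced after 2 or 4 days. Each of the 4 conditions had 2 libraries, 8 in all, and no untreated or plastic-grown library was analysed here. The comparisons ask how the RNA of complement genes differs between the matrices at each time, and between the times on each matrix.

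Complement is a cascade of plasma proteins that marks surfaces for removal, recruits inflammatory cells and can form a pore in a membrane. The classical pathway starts with the proteases C1r and C1s of the C1 complex, the alternative pathway uses the protease factor B, and both cleave C3, whose fragments drive the rest of the cascade. Soluble regulators (factor I and C1 inhibitor) and regulators on the cell membrane (CD46, CD55 and CD59) keep it from attacking host cells. The liver makes most of the complement in plasma, mainly in hepatocytes, and fibroblast-like cells are also known to make C1r, C1s, C3 and factor B, more so when exposed to inflammatory cytokines.

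Total counts per library lay between 19955975 and 27263935, with a median of 22598474. The 2 libraries of the stiff matrix at 4 days stood apart from each other: the SD of the log2 difference between replicates over genes was 0.65 there, against 0.17 to 0.29 in the other conditions. The test estimates 1 spread per gene from all 8 libraries, so this pair weighs on every comparison, and values without either of its libraries are given beside the results that turn on them. Levels are given as CPM, the count of a gene relative to the library's total after scaling by the TMM method. The p-values from edgeR's quasi-likelihood test were adjusted by Benjamini-Hochberg over all 14570 genes and called under 0.05. The study describes the libraries of a condition as independent experiments, whereas the labels give only a replicate number. If they are not separate cultures, the p-values measure only the spread between these libraries. Of the 12 stellate cell or myofibroblast markers, 9 were tested and 2, DES and LRAT, stayed under 1 CPM in every library. The sum of all 12 was 3266 to 7946 CPM per library and was mostly VIM, at 1966 to 6360 CPM. Of 8 hepatocyte markers 7 stayed under 1 CPM in every library, with a sum of 7.22 to 10.6 CPM in soft and 4.41 to 8.93 CPM in stiff libraries, and of 5 endothelial markers all stayed under 1 CPM. Of 8 macrophage markers 4 stayed under 1 CPM, with a sum of 91.7 to 109.7 CPM in soft and 108 to 127 CPM in stiff libraries. That sum was mostly CD68. Of the 4 tested macrophage markers, CD14 and CSF1R had negative log2 fold changes of -0.54 and -0.74 on the stiff matrix over both days, and the other 2 had positive ones. No macrophage marker was called between the matrices, while with time PTPRC was called higher and CSF1R lower on both matrices. Of 4 cholangiocyte markers 2 stayed under 1 CPM, with a sum of 32.2 to 37 CPM at 2 days and 50.7 to 71.2 CPM at 4 days, and SOX9 was called higher with time on both matrices. The part of other cell types in the complement values was not tested. In bulk RNA, fewer cells making a transcript and less of it per cell cannot be told apart.

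**Figure D1:**
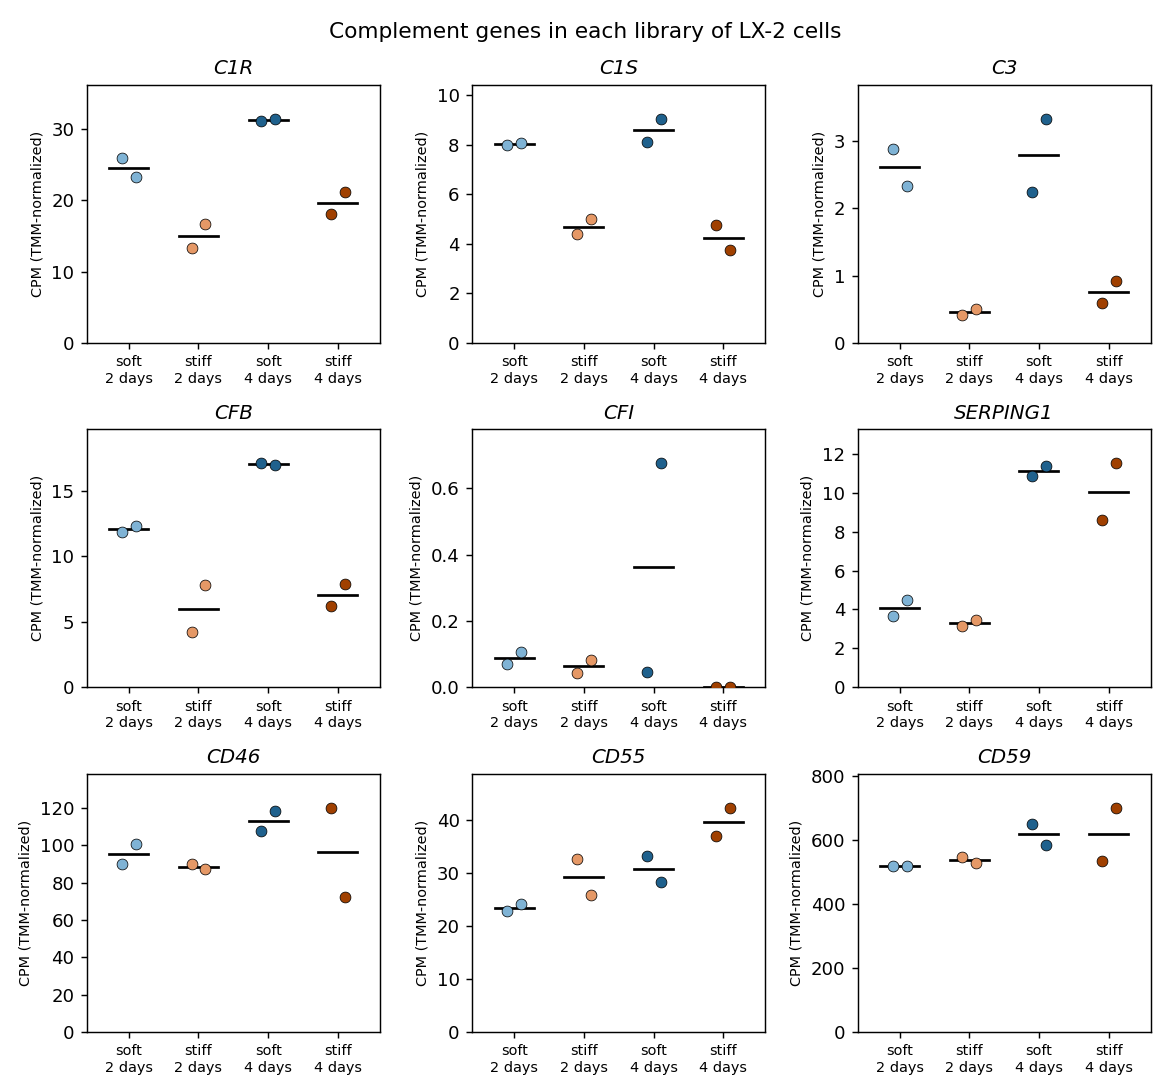
CPM (TMM-normalized, linear axes from 0) of each of the 9 complement genes in the 8 libraries, by matrix and time. Points are libraries, replicate 1 on the left, and horizontal lines are the means of 2 libraries. C1R, C1S, C3 and CFB lay lower in both stiff libraries than in both soft libraries at each time, and SERPING1 lay higher at 4 days on both matrices.

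The genes lie on 6 chromosomes. In GRCh37, the build the authors mapped to, with the GENCODE v44 annotation lifted to it, C1R (chr12:7187513-7245203, minus strand) and C1S (chr12:7096351-7178336, plus strand) are neighbours. C3 lies at chr19:6677715-6730573 (minus strand) and CFB at chr6:31913427-31919863 (plus strand) in the major histocompatibility complex. CFI lies at chr4:110652164-110723306 (minus strand) and SERPING1 at chr11:57364860-57386644 (plus strand). CD46 (chr1:207925382-207968858, plus strand) and CD55 (chr1:207494864-207560149, plus strand) share a regulator cluster on chromosome 1, and CD59 lies at chr11:33724556-33758025 (minus strand). Exons of CFB overlap those of its neighbour C2 and of a read-through gene by 2273 bases on the same strand, and exons of C1R overlap those of C1RL by 672 bases on the same strand. Reads of these overlaps could be counted on either gene or dropped, which leaves the counts of CFB and C1R uncertain to that extent. Exons of C3 (1357 bases), CFI (1562 bases), CD59 (629 bases) and C1S (229 bases) also overlap those of a gene on the same strand that the annotation names only by an identifier, and the same holds for their counts. Exons of CD46 overlap those of MIR29B2CHG on the opposite strand by 797 bases. This bears on the counts of CD46 if reads were counted without regard to strand, and the strand setting is not given.

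RefSeq start site windows (GRCh38.p14, 250 bases before to 50 after the start) were found for 6 of the 9 genes, C1R, CFB, CFI, CD46, CD55 and CD59. Those of C3, C1S and SERPING1 are not shown. The 250 bases before the start are printed for CFB and for both starts of C1R, whose values lay lower in both stiff than in both soft libraries at each time without a call, and for the one start of CD59, a gene with no called difference between the matrices, that holds AP-1 letters. Each is 5′ to 3′ on the gene's strand, and capitals mark matches, on either strand, to the interferon response letters (GAAA, any 2 bases, GAAA), the gamma-activated letters TTCNNNGAA, the AP-1 letters TGANTCA or the TATA box letters TATAAA.
CFB (chr6:31945845-31946094, plus strand): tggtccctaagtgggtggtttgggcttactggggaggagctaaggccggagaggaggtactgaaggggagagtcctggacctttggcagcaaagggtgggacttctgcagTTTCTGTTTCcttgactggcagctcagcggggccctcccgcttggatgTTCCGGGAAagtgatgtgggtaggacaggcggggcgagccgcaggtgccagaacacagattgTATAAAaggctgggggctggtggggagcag
C1R, first start (chr12:7092446-7092695, minus strand): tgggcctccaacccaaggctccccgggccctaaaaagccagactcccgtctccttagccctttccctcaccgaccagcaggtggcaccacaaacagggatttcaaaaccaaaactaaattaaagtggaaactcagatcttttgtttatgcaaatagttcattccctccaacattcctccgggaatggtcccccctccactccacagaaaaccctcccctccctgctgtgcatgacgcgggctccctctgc
C1R, second start (chr12:7091894-7092143, minus strand): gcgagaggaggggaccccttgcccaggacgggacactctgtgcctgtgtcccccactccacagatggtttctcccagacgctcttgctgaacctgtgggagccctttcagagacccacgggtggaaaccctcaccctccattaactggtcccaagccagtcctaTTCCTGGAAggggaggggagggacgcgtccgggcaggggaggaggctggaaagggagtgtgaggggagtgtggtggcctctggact
CD59, start farthest downstream (chr11:33722728-33722977, minus strand): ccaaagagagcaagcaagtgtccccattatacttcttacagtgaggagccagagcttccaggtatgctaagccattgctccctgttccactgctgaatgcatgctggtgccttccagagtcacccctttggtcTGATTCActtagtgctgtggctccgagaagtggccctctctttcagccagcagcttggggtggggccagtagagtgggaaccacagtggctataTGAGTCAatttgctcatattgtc
The CFB window holds an interferon response match on the opposite strand from base -140 to -131, counted from the start, a gamma-activated match from -92 to -84 and a TATA box match from -30 to -25. The second C1R start holds a gamma-activated match from -86 to -78, and the first holds none. The CD59 window holds AP-1 matches from -117 to -111 and from -23 to -17, and another from 4 to 10 lies past the start and is not printed. The windows of the first and second CD59 starts overlap and share 1 gamma-activated match, and the remaining CD59 start and the windows of CFI, CD46 and CD55 hold no match. No window of the 6 genes held the NF-kB consensus. Apart from that shared match, no match overlaps another. For scale, among 35116 windows of the same length, 3.57% held the interferon response letters, 7.66% the gamma-activated letters, 7.71% the AP-1 letters, 5.91% the NF-kB consensus and 11.5% the TATA box letters. These matches are letters in a window and were not tested as binding sites.

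On the stiff matrix, the RNA of C3 and C1S was lower than on the soft matrix in the comparison that averages both days, and these were the only 2 of the 8 complement genes called in a comparison of the matrices. C3 was 4.57-fold lower and C1S 1.85-fold lower. C1R and CFB lay in the same direction without passing the threshold, and the 3 membrane regulators and SERPING1 did not pass in any comparison of the matrices. Among all genes tested, 0.35% were called lower and 0.0755% higher in the average of both days. At 2 days no complement gene was called, as was no gene at all (0%). At 4 days no complement gene was called either, beside 0.213% of all genes called lower and 0.0343% called higher. At an unadjusted p under 0.05, 4 of the 8 complement genes were lower at 2 days, where 1.78% of all genes were lower and 1.04% higher, and 4 were lower at 4 days, where 4.32% of all genes were lower and 2.61% higher. These were C1R, C1S, C3 and CFB at both times. DESeq2, run on the same counts, called C3 at 2 days, C1S, C3 and CFB at 4 days and all 4 over both days. Over all 25369 genes it called 6 higher and 22 lower at 2 days, 50 and 116 at 4 days and 72 and 144 over both days. The same 4 genes lay lower in both stiff than in both soft libraries at each day, which held for 6.14% of all genes. The median log2 difference of the 8 complement genes was -0.51 at 2 days and -0.45 at 4 days, against 0.01 and 0.02 over all genes tested.

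**Figure D2:**
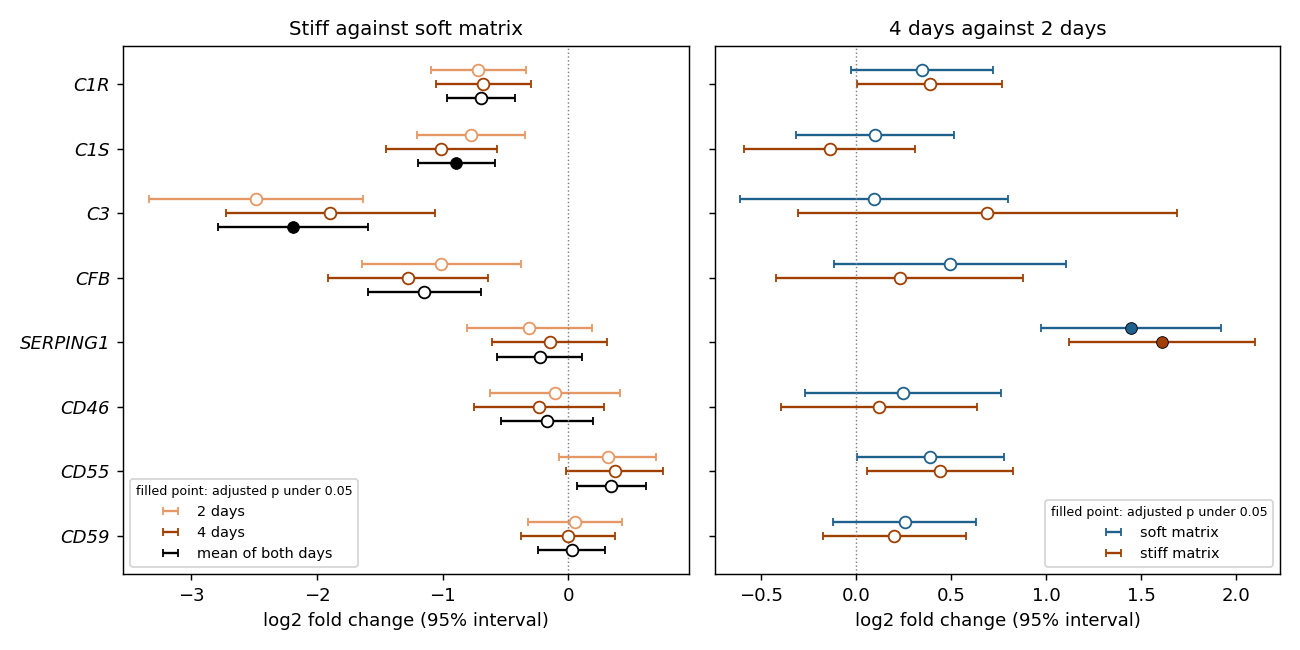
Log2 fold changes with 95% intervals of the 8 tested complement genes, for the stiff against the soft matrix (left) and for 4 against 2 days (right). Filled points passed an adjusted p of 0.05: C3 and C1S in the average of both days on the left, and SERPING1 on both matrices on the right.

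C3, the protein on which all complement pathways converge, was measured at 2.89 and 2.34 CPM on the soft matrix at 2 days, against 0.42 and 0.503 CPM on the stiff matrix. At 4 days it was at 2.24 and 3.34 CPM on the soft matrix, against 0.589 and 0.922 CPM on the stiff one. All 4 soft libraries were thus above all 4 stiff libraries, with a wide gap between them. The stiff values rest on few reads: the counts were 10, 12, 12 and 16 in stiff libraries against 48 to 82 in soft libraries, and 10 counts have an exact 95% Poisson interval of 4.8 to 18.4, which covers counting error only. The log2 fold change was -2.49 ± 0.37 (SE) at 2 days (adjusted p = 0.334), -1.89 ± 0.36 at 4 days (adjusted p = 0.131) and -2.19 ± 0.26 over both days (95% interval -2.79 to -1.6, adjusted p = 0.0176). Over both days it was negative in each of the 17 alternatives that gave a value, from -2.36 to -2.03 on counts and -0.45 (adjusted p = 0.0603) with unfiltered limma on log2(FPKM + 1), a scale that understates the change of low genes.

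C1R and C1S encode the paired serine proteases of the C1 complex. C1S was measured at 7.99 and 8.06 CPM on the soft and at 4.41 and 4.98 CPM on the stiff matrix at 2 days. The 4-day values were 8.12 and 9.06 CPM on the soft and 4.76 and 3.74 CPM on the stiff matrix. Its soft and stiff libraries did not overlap, and the soft values were close to each other at both times. The log2 fold change was -0.77 ± 0.19 at 2 days (adjusted p = 0.966), -1.01 ± 0.19 at 4 days (adjusted p = 0.128) and -0.89 ± 0.13 over both days (95% interval -1.2 to -0.58, adjusted p = 0.0422). C1R was measured at 25.9 and 23.3 CPM on the soft and at 13.4 and 16.6 CPM on the stiff matrix at 2 days. At 4 days it was at 31.1 and 31.5 CPM on the soft and at 18.1 and 21.1 CPM on the stiff matrix. Each stiff library was below each soft library. Its log2 fold change was -0.71 ± 0.16 at 2 days (adjusted p = 0.855), -0.67 ± 0.16 at 4 days (adjusted p = 0.26) and -0.69 ± 0.12 over both days (95% interval -0.96 to -0.43, adjusted p = 0.0621). The ratio of C1R to C1S CPM stayed between 2.89 and 3.83 in 7 libraries and was 5.65 in replicate 2 of the stiff matrix at 4 days, which has the lowest C1S value.

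CFB encodes factor B, the protease of the alternative pathway, whose start site window holds interferon response, gamma-activated and TATA box letters. It was measured at 11.8 and 12.3 CPM on the soft and at 4.2 and 7.79 CPM on the stiff matrix at 2 days. By 4 days it had values of 17.1 and 17 CPM on the soft and at 6.19 and 7.89 CPM on the stiff matrix. The soft replicates were nearly alike, whereas the stiff replicates at 2 days were 1 high and 1 low, yet both under every soft library. The log2 fold change was -1.01 ± 0.27 at 2 days (adjusted p = 0.9999), -1.28 ± 0.28 at 4 days (adjusted p = 0.195) and -1.14 ± 0.19 over both days (95% interval -1.59 to -0.69, adjusted p = 0.0662).

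These calls depended on single libraries. Without any 1 of the 6 libraries outside the stiff matrix at 4 days, neither C3 nor C1S was called over both days, with adjusted p-values of 0.0556 to 0.167 for C3 and of 0.174 to 0.341 for C1S. CFB was called without replicate 2 of the stiff matrix at 2 days. Without replicate 1 or replicate 2 of the stiff matrix at 4 days, C1R, C1S, C3 and CFB were all called lower at 2 days, at 4 days and over both days, with adjusted p-values over both days of 3.3e-05 to 0.000879. Those 2 fits also called many other genes. Without replicate 1 they were, of 15021 genes, 37 higher and 82 lower at 2 days, 2477 and 2199 at 4 days and 1605 and 1363 over both days. Without replicate 2 they were, of 15014 genes, 36 higher and 86 lower at 2 days, 273 and 272 at 4 days and 475 and 550 over both days. The log2 fold change over both days ranged from -2.36 to -2.03 for C3, from -0.98 to -0.81 for C1S, from -0.78 to -0.62 for C1R and from -1.4 to -0.96 for CFB when each library was left out in turn. With the replicate number as a block, only C3 was called, at an adjusted p of 0.0437, and C1S had 0.134.

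**Figure D3:**
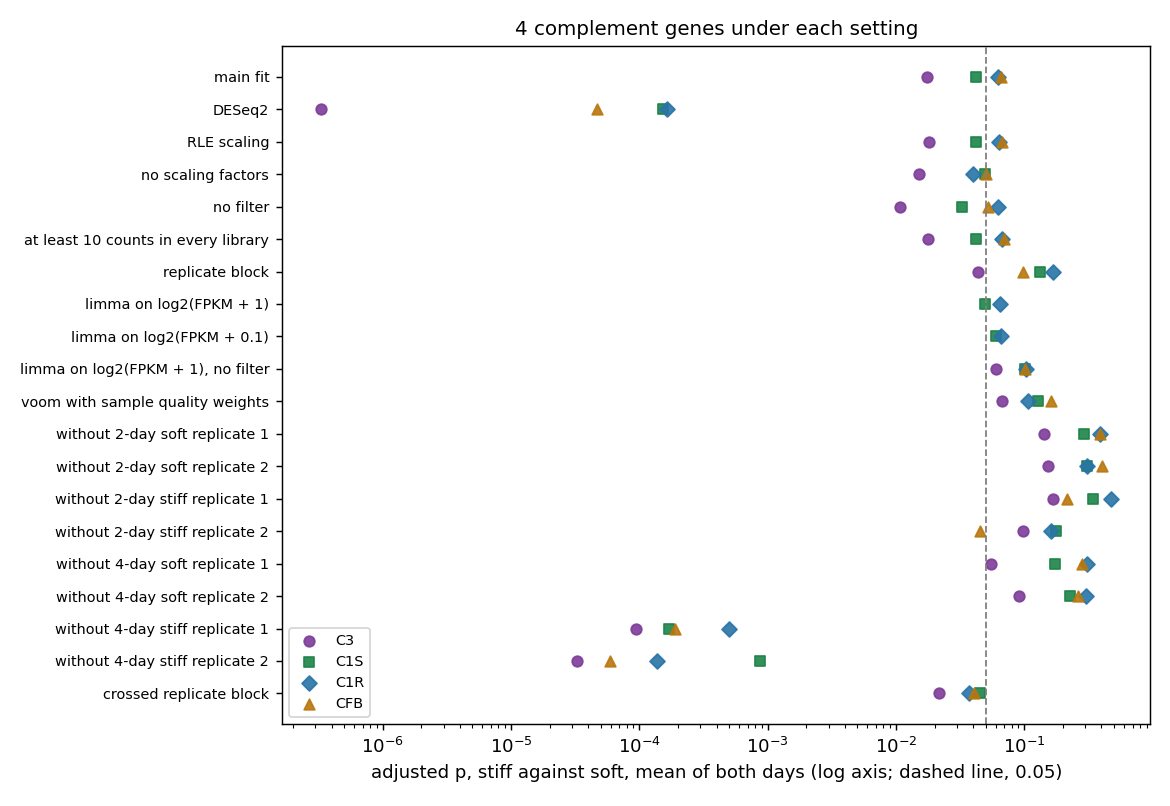
Adjusted p-values (log axis) of C3, C1S, C1R and CFB for the stiff against the soft matrix over both days, in the main fit and under each alternative. The dashed line is 0.05. Points left of it by the widest margin come from DESeq2 and from the fits without a stiff-matrix library of 4 days, and each fit without another library put C3 and C1S to the right of it.

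Among the soluble regulators, SERPING1, which encodes C1 inhibitor of the C1 proteases, was not called between the matrices. On the soft and stiff matrices it was at 3.66 and 4.5 CPM and at 3.15 and 3.43 CPM at 2 days, and at 10.9 and 11.4 CPM and at 8.59 and 11.5 CPM at 4 days. Both stiff libraries were below both soft libraries at 2 days, as for 22.4% of all genes, and the groups overlapped at 4 days. The log2 fold change over both days was -0.23 (95% interval -0.57 to 0.11, adjusted p = 0.837). CFI, which encodes factor I, the protease that inactivates C3b, had 2 and 3 counts on the soft and 1 and 2 on the stiff matrix at 2 days, and 1 and 15 on the soft and 0 and 0 on the stiff matrix at 4 days. A single library, replicate 2 of the soft matrix at 4 days, thus held most of its reads. A count of 0 allows up to 3 counts, or 0.147 and 0.173 CPM in these libraries, which is above the values of 5 of the other 6 libraries, so a difference was not detectable at this depth.

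The membrane regulators showed no called difference between the matrices. CD55, which speeds the decay of C3 convertases, was at 22.8 and 24.3 CPM on the soft and at 32.6 and 26 CPM on the stiff matrix at 2 days. At 4 days it was at 33.3 and 28.3 CPM on the soft and at 37.1 and 42.4 CPM on the stiff matrix. Both stiff libraries were above both soft libraries at each time, the opposite order to the 4 genes above, and 4.79% of all genes were ordered so. Its log2 fold change was 0.32 at 2 days, 0.37 at 4 days and 0.34 ± 0.12 over both days (95% interval 0.07 to 0.62), with an unadjusted p of 0.02 and an adjusted p of 0.451 for the last, beside 2.95% of all genes higher and 4.75% lower at an unadjusted p under 0.05. Without replicate 1 of the stiff matrix at 4 days it was called, at an adjusted p of 0.0116 over both days.

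CD46, a cofactor for the cleavage of C3b, was at 89.9 and 100.5 CPM on the soft and at 89.9 and 87.4 CPM on the stiff matrix at 2 days. At 4 days it was at 108 and 119 CPM on the soft and at 120 and 72.3 CPM on the stiff matrix, where 1 replicate was the highest and the other the lowest of all libraries. The log2 fold change over both days was -0.17 (95% interval -0.53 to 0.2). It was -0.37 without replicate 1 of the stiff matrix at 4 days, and whether CD46 passed over both days turned on that library. Which replicate is used decides its sign at 4 days, where it was -0.64 and called without replicate 1 of the stiff matrix, in a fit that called 2477 genes higher and 2199 lower at 4 days, and 0.1 and not called without replicate 2. CD59, which blocks the assembly of the membrane pore, was at 518 and 518 CPM on the soft and at 546 and 529 CPM on the stiff matrix at 2 days. The 4-day values were 649.7 and 586 CPM on the soft and 534 and 702 CPM on the stiff matrix, so the groups overlapped. Its log2 fold change over both days was 0.03 (95% interval -0.24 to 0.29), and -0.07 without scaling factors.

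With all 8 libraries, the change of the matrix difference between the days was not called for any of the 8 complement genes by edgeR (adjusted p = 0.9997 for each) or by DESeq2. Nor was it called for any of all genes by edgeR (0%). The absence of calls by edgeR, for CD46 and over all genes, turned on replicate 1 of the stiff matrix at 4 days. For CD46 the estimate was -0.13 with all 8 libraries, -0.53 without that replicate and 0.21 without replicate 2. At an unadjusted p under 0.05 no complement gene passed either, beside 0.776% of all genes higher and 1.17% lower. The intervals were wide: for C3 the matrix difference was 0.6 higher at 4 days than at 2 days on the log2 scale (95% interval -0.62 to 1.81), and for CFB -0.27 (-1.16 to 0.63). Of the 8 estimates, 4 were above 0 and 4 below.

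The balance between components and regulators can be read within a library, where scaling cancels. The ratio of CD55 to C3 CPM was 7.89, 10.4, 14.9 and 8.49 on the soft matrix, against 77.7, 51.7, 63 and 46.1 on the stiff one. The ratio of CD55 to CFB CPM was 1.93, 1.97, 1.94 and 1.67 on the soft matrix, against 7.77, 3.33, 6 and 5.38 on the stiff one. Both ratios were higher in every stiff library than in every soft library. They combine the values given above and are no separate evidence.

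Between 2 and 4 days, SERPING1 was the only complement gene called in the main fit, on both matrices. It rose 2.72-fold on the soft matrix (log2 fold change 1.45 ± 0.2, 95% interval 0.97 to 1.92, adjusted p = 0.00362) and 3.05-fold on the stiff matrix (1.61 ± 0.21, 1.12 to 2.1, adjusted p = 0.00292). All 4 libraries of 4 days were above all 4 of 2 days, an order that 27.5% of all genes had on both matrices. Many genes moved with time: 14.1% of all genes were called higher on the soft matrix, 14% on the stiff one and 10.3% on both, so 1 of 8 complement genes called is near this background. Without replicate 1 of the soft matrix at 2 days, the adjusted p on the soft matrix was 0.0594. A fit of the stiff libraries alone gave 0.0548 on the stiff matrix.

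The other 7 tested complement genes did not pass between the times in the main fit. Whether C1R, CD55 and CFB passed on the soft matrix turned on the stiff libraries of 4 days. On the stiff matrix the same held for C1R, CD46, CD55 and CD59. Log2 fold changes with each library left out in turn were 0.24 to 0.5 (soft) and 0.28 to 0.62 (stiff) for CD55. They were 0.27 to 0.42 and 0.24 to 0.55 for C1R, and 0.46 to 0.53 for CFB on the soft matrix. CD55 had log2 fold changes of 0.39 on the soft (adjusted p = 0.12) and 0.44 on the stiff matrix (adjusted p = 0.0858), with each library of 4 days above each of 2 days on the same matrix. C1R had 0.35 (adjusted p = 0.146) and 0.39 (adjusted p = 0.118) and was ordered in the same way. CFB had 0.5 (adjusted p = 0.196) on the soft and 0.23 (adjusted p = 0.574) on the stiff matrix, where its groups overlapped. C3 had 0.09 (adjusted p = 0.84) on the soft and 0.69 (adjusted p = 0.264) on the stiff matrix. C1S had 0.1 (adjusted p = 0.712) and -0.14 (adjusted p = 0.623), CD46 0.25 (adjusted p = 0.433) and 0.12 (adjusted p = 0.712) and CD59 0.25 (adjusted p = 0.273) and 0.2 (adjusted p = 0.384). The libraries at each time on 1 matrix are shared with the comparisons of the matrices.

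Levels between genes were compared by the deposited FPKM, which divide by gene length. CD59 was highest, with a median of 66.5 FPKM over 8 libraries (63.9 to 85.7), followed by CD46 with 28 (21 to 35.2). CD55, with 10.3 (7.79 to 14.4), and C1R, with 9.74 (5.88 to 13.6), overlapped in their ranges, and C1R was above CD55 in each soft library and below it in each stiff library. SERPING1 had a median of 3.29 (1.59 to 5.73) and C1S of 2.31 (1.31 to 3.16), which also overlapped. C3 had 0.307 (0.0822 to 0.64) and CFI 0.027 (0 to 0.306). By CPM per kilobase of the longest annotated transcript, C1R (median 10.5) stood above CD55 (8.06), so the order of these 2 genes depends on the matrix and on the length used. CD59 stood at the top of the order by either measure, and C3 and CFI at its foot. CD46 came next to CD59 by either median, but by CPM per kilobase its range (9.24 to 15.4) overlapped that of C1R (6.32 to 14.9).

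**Figure D4:**
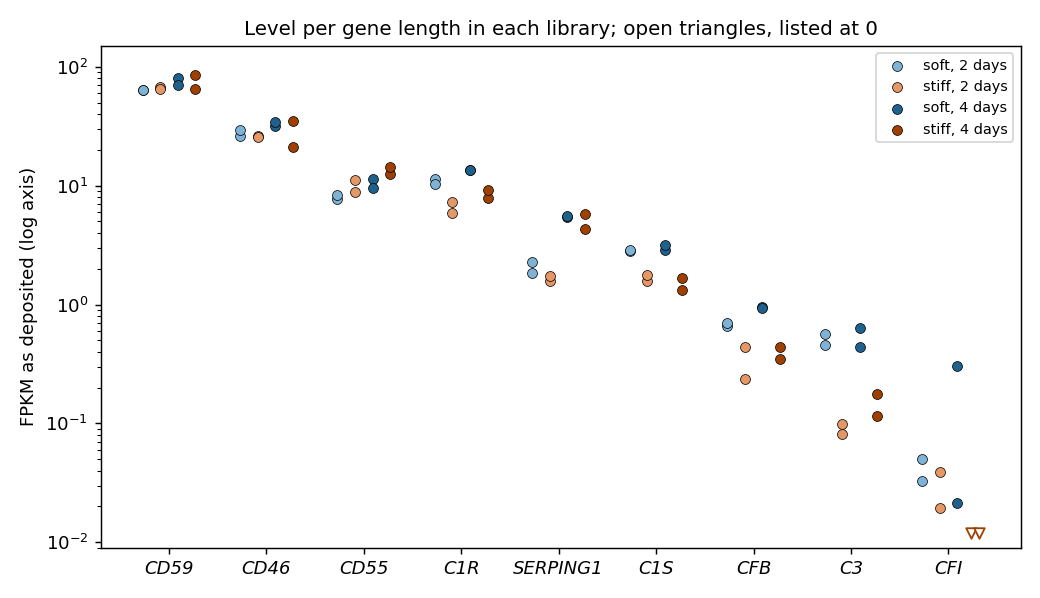
Deposited FPKM (log axis) of the 9 complement genes in each library, in order of their median, with colours for matrix and time. Open triangles at the foot mark the 2 libraries in which CFI is listed at 0. CD59 lies at 63.9 to 85.7 FPKM and C3 at 0.0822 to 0.64 FPKM, and CFB stands too low because of the length used for it.

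The FPKM of CFB cannot be placed in this order. The gene length implied by its counts and FPKM was 17808 bases, whereas all its annotated exons together cover 5312 bases and its longest transcript has 4139. The same holds for C2, at 26972 implied bases against 7151 exonic bases. Among 114 protein-coding genes of the major histocompatibility complex region, 105 (92.1%) had an implied length at least 3 times their longest transcript, against 23 of 15330 (0.15%) elsewhere. By CPM per kilobase of the longest annotated transcript, CFB had a median of 2.38 (1.01 to 4.14), close to SERPING1 with 2.3 (1.11 to 4.04). Fold changes of 1 gene between libraries do not depend on its length.

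Of 54 other complement genes, 19 were tested and 17 had no count in any library, C4A and C4B among them. How reads that match several genes were counted is not given, so a count of 0 does not show that the RNA was absent. None of the 19 was called in a comparison of the matrices by edgeR, with 5 lower and 1 higher at an unadjusted p under 0.05 over both days, where 4.75% of all genes were lower and 2.95% higher. DESeq2 called C1RL lower at 4 days and no other of them. C2, the classical pathway protease next to CFB, was at 1.55 to 1.8 CPM on the soft and 0.672 to 1.09 CPM on the stiff matrix at 2 days, and at 1.67 to 2.01 against 0.979 to 0.982 CPM at 4 days. It was lower in all stiff libraries, with a log2 fold change over both days of -0.91 (95% interval -1.45 to -0.37, adjusted p = 0.252). C1RL, a C1r-like protease, was at 6.11 and 6.31 against 2.85 and 3.51 CPM at 4 days (-0.97, adjusted p = 0.151) and shares exons with C1R. C5, the component cleaved after C3, had -0.3 over both days (adjusted p = 0.695) and CLU, the fluid-phase inhibitor clusterin, -0.02 (95% interval -0.32 to 0.28, adjusted p = 0.992).

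Between the times, 3 of these 19 genes were called higher and 1 lower on the soft matrix, beside 14.1% and 13.3% of all genes. On the stiff matrix 3 were called higher and 3 lower, beside 14% and 13.7% of all genes, so these counts are near the background. VTN, which encodes vitronectin, a fluid-phase inhibitor of the pore, rose on both matrices, by 1.86 (adjusted p = 0.00808) on the soft and 2.03 (adjusted p = 0.00785) on the stiff matrix on the log2 scale. ITGB2, the shared chain of the complement receptors CR3 and CR4, also rose on both, by 1.2 (adjusted p = 0.0485) and 1.4 (adjusted p = 0.023). CSMD2, a membrane protein with complement control domains, fell on both, with log2 fold changes of -0.93 (adjusted p = 0.0397) and -1.17 (adjusted p = 0.0206). On the stiff matrix C4BPB, a chain of C4b-binding protein, rose from 2 and 3 counts to 19 and 37 counts (adjusted p = 0.00716), C1RL fell by 0.69 on the log2 scale (adjusted p = 0.0329) and CFP, which encodes properdin, fell from 11 and 13 counts to 1 and 3 counts (adjusted p = 0.0497). Each of these 10 calls was lost when at least 2 of the 8 libraries were left out in turn, with adjusted p-values of up to 0.26, and none changed direction. The 2 libraries of 4 days on the stiff matrix that stood apart enter the values on that matrix.

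**Figure D5:**
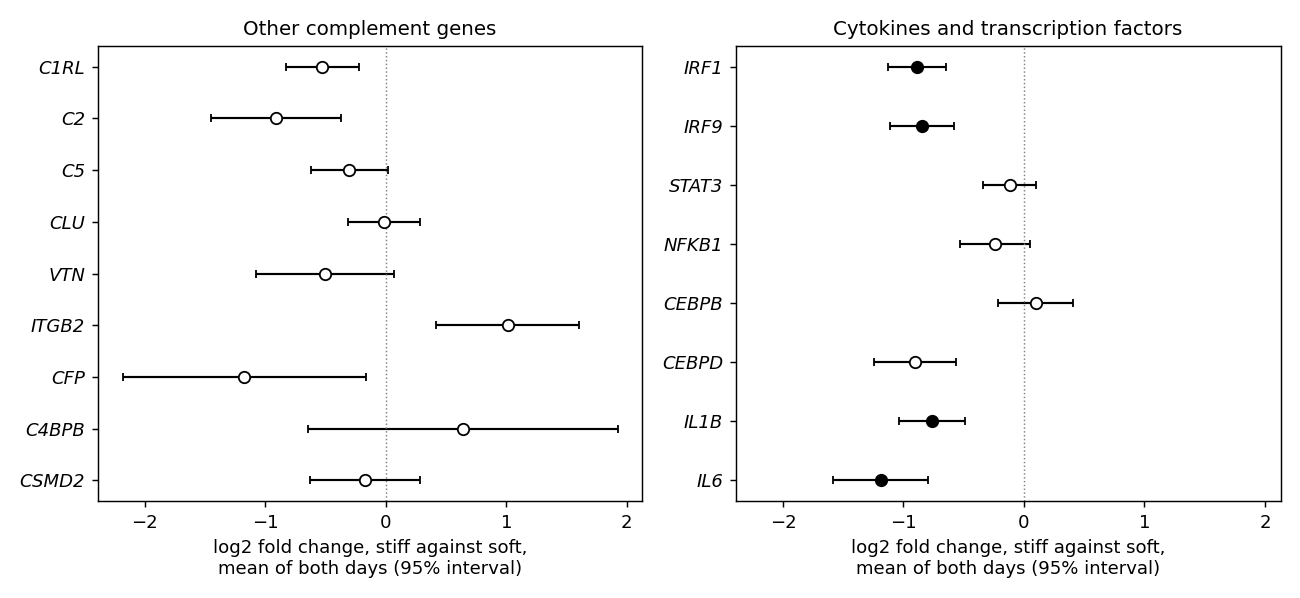
Log2 fold changes with 95% intervals for the stiff against the soft matrix, over both days, of the named other complement genes (left) and of named cytokines and transcription factors (right). Filled points passed an adjusted p of 0.05: IRF1, IRF9, IL1B and IL6, all lower on the stiff matrix.

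Cytokines and transcription factors known to raise complement genes, with receptors and kinases of their signalling, were listed as 26 genes. Of these, 23 were tested and 4 were called over both days, all lower on the stiff matrix, beside 0.35% of all genes called lower and 0.0755% higher. IRF1, a transcription factor induced by interferon gamma, was at 37.4 and 38.5 CPM on the soft and 21.4 and 26.4 CPM on the stiff matrix at 2 days, and at 37.5 and 39.5 against 17.2 and 18.4 CPM at 4 days. Its log2 fold change was -1.11 at 4 days (adjusted p = 0.0362) and -0.89 over both days (adjusted p = 0.0176). IRF9, the DNA-binding part of the complex that type I interferon activates, had -0.84 over both days (adjusted p = 0.0319). The inflammatory cytokines IL6 and IL1B had -1.19 (adjusted p = 0.0387) and -0.76 (adjusted p = 0.0475). CEBPD, an acute phase transcription factor, had -0.9 (adjusted p = 0.0572) in the main fit. DESeq2 called it, IL1A and these 4 genes lower over both days, where it called 72 higher and 144 lower over all genes. STAT3, NFKB1 and CEBPB had log2 fold changes of -0.12, -0.24 and 0.1 over both days (adjusted p = 0.896, 0.771 and 0.953). Without any 1 of the 6 libraries outside the stiff matrix at 4 days, none of the 4 genes was called over both days, nor IRF1 at 4 days, with adjusted p-values of up to 0.372. With the replicate block none of the list was called over both days or at 4 days, and with voom quality weights only IRF1 was called over both days. At 2 days the separate fit and voom each called 6 of the list lower and 0 higher. Over all genes these fits called 314 higher and 353 lower, and 63 and 124. Without replicate 1 or 2 of the stiff matrix at 4 days the 4 genes kept their calls, and more of the list passed. With each library left out in turn, the log2 fold change over both days was -0.97 to -0.82 for IRF1 and -0.94 to -0.76 for IRF9. It was -1.28 to -1.11 for IL6 and -0.84 to -0.67 for IL1B. The list had a median of -0.18, against 0.02 over all genes, and whether its genes bear on the complement values was not tested.

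Likeness was described by Pearson's r of log2 CPM over the 8 libraries, which share the 4 conditions, among 12043 or 12044 genes of at least 1 average log2 CPM. C1R and CFB were alike at 0.96, C3 and C1R at 0.93, C3 and CFB at 0.91, C3 and C1S at 0.89, C1S and CFB at 0.86 and C1R and C1S at 0.8. SERPING1 had 0.09 to 0.58 with these 4 genes, and CD55 had -0.66 to -0.21. The closest genes were ALDOC (0.95), LIPG and TCF7 for C3, FBXO48 (0.99), CD82 and IL6 for C1R, LPXN (0.98), BBS2 and IRF9 for C1S, and CCL2 (0.99), BTN3A3 and CXCL1 for CFB. They were TM7SF3 (0.997), RBBP7 and MSMO1 for SERPING1, DHX40 (0.99), MAP3K7 and ZMYM2 for CD46, ITGB2 (0.99), GTPBP4 and HSPD1 for CD55, and SLC25A26 (0.99), RAB13 and RFWD2 for CD59. With 8 points in 4 conditions, high values arise in many genes, and they are given as a description.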

How the data were processed

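Per the labels and the study's methods, RNA of LX-2 cells (NEBNext Ultra kit, paired-end reads) was trimmed with Trim Galore and mapped to hg19 with STAR 2.7.1a, and the authors deposited HTSeq counts per gene, not normalized, and FPKM of the same genes. The annotation and strand setting are not given in the sources used here, so overlapping genes could share reads. Counts divided by FPKM gave a whole gene length (within 0.01 bases) in 100% of 20029 genes. The division used median-of-ratios size factors and the geometric mean of the library totals in place of each library's own total.

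Groups came from the labels. Counts were tested with edgeR 4.0.16 in R 4.3.3: filterByExpr by condition (14570 of 25369 genes), TMM factors (0.87 to 1.08) and 1 quasi-likelihood fit of 4 conditions to 8 libraries, with a prior of 3.86 degrees of freedom. The 95% intervals use this fit's SE. Log2 CPM used a prior count of 2. Alternatives were DESeq2 1.42.0, limma 3.58.1 on log2 FPKM with a pseudocount of 1 (unfiltered, or with at least 1 FPKM in 2 libraries) or of 0.1 (filtered), voom quality weights, RLE or no scaling, no filter or at least 10 counts in every library, separate fits, the replicate number as a block and each library left out. A crossed block and separate DESeq2 fits were chosen after seeing the data. Applied to simulated counts of 14371 genes with 200 changed at 4 days, edgeR called 199 of them with 9 false calls. The changed genes were drawn above a minimum level, with a median estimated log2 change of 2.03. Each gene had the same spread in all simulated libraries. The simulation therefore does not show the power for low genes such as C3, for smaller changes or for the uneven stiff replicates at 4 days.

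The complement genes and all lists were chosen with earlier results of these data known. All 9 are named. Of 54 other complement genes, those called in any comparison and C2, C4A, C4B, C5, C1RL and CLU are named. Of 26 cytokines, receptors, kinases and transcription factors, those called between the matrices and STAT3, IRF1, NFKB1, CEBPB and CEBPD are named. For likeness the 3 closest genes to each complement gene tested are named. Some genes that this rule covers are counted but not reported here.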

Additional observations from a re-analysis of the deposited data

How the results depend on the processing

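C3, C1R, C1S and CFB were lower on the stiff matrix at 2 days, at 4 days and over both days under every alternative that gave a value, but which of the complement genes passed an adjusted p of 0.05 moved with the fit. Where a cause is not evident from fewer libraries or genes, the cause was not tested. At 2 days (0 called), DESeq2 called 1, the separate fit 4, voom with quality weights 4 and separate DESeq2 fits 3, and leaving out a library gave 0 to 4. Over all genes at 2 days, the separate fit called 314 higher and 353 lower of 14290, voom 63 and 124 of 14570 and separate DESeq2 fits 213 and 156 of 25369. At 4 days (0 called), DESeq2 called 3, and leaving out a library gave 0 to 6. Over both days (2 called), DESeq2 called 4, limma on log2(FPKM + 1) called 1, limma on log2(FPKM + 0.1), the same without a filter at log2(FPKM + 1), and voom with quality weights each called 0, and leaving out a library gave 0 to 6. C3 and CFB did not pass the filter of at least 1 FPKM and so had no value in the first 2 limma fits. Over all genes and both days, those 2 fits called 11 higher and 45 lower, and 12 and 36, each of 12374 genes. The unfiltered limma fit called 13 higher and 36 lower of 20029 genes, and voom 6 and 23 of 14570. On the soft matrix between the times (1 called), the separate fit called 3 (3543 higher and 3718 lower of 14331 genes) and separate DESeq2 fits 2 (2896 and 3148 of 25369). On the stiff matrix (1 called), the separate fit called 0, as over all 14069 genes. For the change between the days (0 called), every alternative that kept all 8 libraries also called 0.

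Deviations of same-numbered libraries correlated at -0.14 at 2 days and -0.76 at 4 days, so the replicate numbers were not taken to pair the samples. With the replicate block, 1 complement gene (C3) was called over both days, and over all genes the calls moved from 11 higher and 51 lower to 5 and 24. With the crossed pairing, chosen after seeing the data, 4 complement genes were called over both days, beside 11 higher and 63 lower of all 14570 genes.

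CD59 had values near 0 whose sign moved: without scaling factors it was -0.013 at 2 days and -0.0718 over both days, and at 4 days it was 0.0035 with DESeq2, 0.0048 with RLE scaling, 0.0043 in the separate fit and 0.0085 in the separate DESeq2 fit. Without scaling factors the change between the days was -0.0221 for C1R and -0.0023 for CD55. With a library left out, the sign also moved at 4 days for CD46 (-0.635 to 0.0977), CD59 (-0.203 to 0.193) and SERPING1 (-0.362 to 0.0605), and over both days for CD59 (-0.0792 to 0.121). Between the times it moved for C3 on the soft matrix (-0.22 to 0.32) and, on the stiff matrix, for C1S (-0.328 to 0.012), CD46 (-0.29 to 0.43), CD59 (-0.0185 to 0.383) and CFB (-0.15 to 0.74). For the change between the days it moved for C1R (-0.108 to 0.205), CD46 (-0.53 to 0.21), CD55 (-0.105 to 0.228), CD59 (-0.25 to 0.14), CFB (-0.64 to 0.24) and SERPING1 (-0.0445 to 0.373). None of these was called in the main fit. Counts of 10 to 16 for C3 on the stiff matrix, and of 0 to 15 for CFI, limit what can be read from them.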
